A study of Mus musculus with 8 samples.

Results

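Chromatin-associated RNA of mouse embryonic fibroblasts that lack both cRel and RelA (crel-/-rela-/-, the knockout, KO) was compared with that of wild-type (WT) fibroblasts 15 min after tumour necrosis factor (TNF), the earliest time after stimulation in the series. Genes were taken in where the higher of the 15 min libraries held at least 20 counts and the gene lay off chromosomes X and Y, which left 12295 of the 45706 genes in the table. Ratios at 15 min were read beside those at 0 min, so that a gap that was present before TNF (a basal gap) can be read apart from one that appeared within 15 min (a response gap). Both groups were primary cells of the C57BL/6 strain from embryos, kept overnight in medium with 0.5% bovine calf serum. The 15 min groups then received TNF at 10 ng/ml and the 0 min groups are labelled as given the control agent. There was 1 library for each genotype at 0, 15, 45 and 60 min, 8 in all, with no replicates and no unstimulated library at 15 min. An effect of TNF from 0 to 15 min therefore cannot be told apart from one of handling, and no label ties a library to its own culture or animal. The labels do not say which part of each gene was deleted.

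NF-kB is a family of dimeric transcription factors held in the cytoplasm by inhibitor (IkB) proteins. TNF binds its receptor and triggers the degradation of IkB proteins, after which dimers with RelA or cRel enter the nucleus and bind kB sites at promoters and enhancers of inflammatory genes. Among the first targets are the genes of the inhibitors themselves, which close the response. RNA still attached to chromatin is mostly newly made, so its level follows transcription more closely than that of total cell RNA does.

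The libraries held 12359817 to 15607331 counts, of which 58.92% to 70.62% fell on 3 gene models, Gm26917, Gm42418 and Malat1. The KO 15 min library had the fewest counts outside them, 3948194 against 4884953 in the WT 15 min library. At 0, 15, 45 and 60 min, Rela counts were 324, 406, 704 and 589 in WT against 306, 241, 291 and 324 in KO. Rel, which encodes cRel, had 151, 173, 805 and 506 counts in WT against 478, 308, 538 and 633 in KO. With the deleted part unknown, whole-gene counts check nothing about the labels. The 10 fibroblast markers were present in every library, with a summed level of 5680 to 8864 CPM (counts divided by the scaled library size), and none of the 10 was called between the genotypes at 0 or 15 min. Smaller differences were present, such as Dcn at 1.92-fold lower in KO at 0 min (interval 1.68 to 2.21) and Pdgfra at 1.54-fold lower at 15 min (interval 1.41 to 1.68). The KO 0 min library stood apart in cartilage markers, which summed to 483.4 CPM there and to 44.56 CPM in the KO 15 min library, and in epithelial markers, at 14.46 and 2.47 CPM. Every basal ratio uses this library. Macrophage markers summed to 63.99 to 85.19 CPM in the WT libraries and to 5.956 to 8.205 CPM in the KO libraries. In these bulk samples, fewer cells of a type and less RNA per cell cannot be told apart. Xist, set aside with chromosome X, had 17896 to 21886 counts in the WT libraries and 16 to 29 in the KO libraries. An effect of the knockout therefore cannot be told apart from one of the sex make-up of the cultures.

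The promoters of Nfkbia, Cxcl1, Cxcl2 and Tnfaip3, all higher in WT at 15 min and lower in KO, are shown because they carry kB-like motifs within 250 bases of the start site, for which they were picked. The sequences are from RefSeq (GRCm38.p6), read 5' to 3' on the strand of the gene and ending at the base before its start. They lie at chr12:55492648-55492897 (minus strand), chr5:90890995-90891244 and chr5:90903649-90903898 (plus strand) and chr10:19015411-19015660 (minus strand). Capitals mark matches, on either strand, to a kB-like motif of GGG, any 3 bases and TTCC, and overlapping matches run together.
Nfkbia: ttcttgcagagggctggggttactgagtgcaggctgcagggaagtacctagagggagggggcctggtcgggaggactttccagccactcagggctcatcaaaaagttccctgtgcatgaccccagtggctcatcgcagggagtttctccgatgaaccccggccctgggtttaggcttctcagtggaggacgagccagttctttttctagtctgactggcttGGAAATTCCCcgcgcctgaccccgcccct
Cxcl1: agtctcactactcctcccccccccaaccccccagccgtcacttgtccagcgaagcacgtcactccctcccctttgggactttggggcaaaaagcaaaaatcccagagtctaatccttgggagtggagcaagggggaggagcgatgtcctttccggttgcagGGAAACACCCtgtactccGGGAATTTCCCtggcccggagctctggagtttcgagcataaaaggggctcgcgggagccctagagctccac
Cxcl2: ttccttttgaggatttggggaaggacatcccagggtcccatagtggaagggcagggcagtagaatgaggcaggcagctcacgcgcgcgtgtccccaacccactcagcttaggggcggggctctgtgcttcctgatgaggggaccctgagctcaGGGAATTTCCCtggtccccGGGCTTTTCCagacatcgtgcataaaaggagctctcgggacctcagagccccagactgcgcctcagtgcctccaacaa
Tnfaip3: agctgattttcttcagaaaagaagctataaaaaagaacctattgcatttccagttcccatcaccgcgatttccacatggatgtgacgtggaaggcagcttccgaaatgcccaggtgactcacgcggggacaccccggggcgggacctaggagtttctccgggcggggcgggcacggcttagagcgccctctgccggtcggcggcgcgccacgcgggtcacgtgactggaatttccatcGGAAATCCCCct
The Nfkbia match lay 29 to 20 bases before the start, and the Tnfaip3 match 12 to 3 bases before it. Cxcl1 and Cxcl2 each had 3 matches, of which 2 overlapped in 1 palindromic site. In a window of 300 bases, 250 before to 50 after the start, the motif was present in 5.83% of 18040 promoters and in 5.93% of the 8784 promoters of genes compared here. Among genes induced in WT at 15 min and lower in KO, 8 of the 22 with a promoter in the table held it (36.4%). These were Ccl20, Ccl9, Cxcl1, Cxcl10, Cxcl2, Nfkbia, Tlr2 and Tnfaip3. Among genes induced in WT and not lower in KO, 2 of 40 held it (5.0%). The share was 3 of 28 (10.7%) for genes with a lower response gap and 20 of 194 (10.3%) for those with a lower basal gap. A match describes the letters only, and these shares carry no test.

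Most genes had similar levels in the 2 genotypes at 15 min: 93.6% of the 12295 ratios lay within 2-fold, and the central 90% ran from -0.89 to 0.71 on the log2 scale. A gene was called when its scaled ratio was at least 2-fold and its 95% counting interval excluded 1. By this rule 504 genes were lower in KO (4.1%) and 262 were higher (2.13%). Scaling by total counts shifted the median ratio to -0.19 on the log2 scale and gave 681 lower and 149 higher genes, so higher genes made up 17.95% of the calls in place of 34.2%. At 0 min, 492 of 12973 genes were lower (3.79%) and 321 higher (2.47%). As a yardstick for differences between libraries of 1 genotype, 60 against 45 min gave 135 lower (1.08%) and 143 higher (1.14%) genes in WT, and 143 (1.17%) and 117 (0.961%) in KO. Of the 504 lower genes, 284 had a basal gap, 52 had a response gap and 168 fell in neither class. Of the 262 higher genes, the corresponding numbers were 89, 54 and 119.

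The ratio rule has no replicate behind it, so the comparison was also fitted with the edgeR quasi-likelihood test, which takes its spread from the 45 and 60 min libraries of each genotype and assumes that the lone 15 min libraries vary like them. In that fit 171 of 14597 genes off X and Y were lower in KO at 15 min (1.17%) and 32 were higher (0.219%), at a Benjamini-Hochberg adjusted p under 0.05. Of the genes called by the ratio rule, 168 of the 504 lower and 31 of the 262 higher also passed this test. At 0 min the same fit called 223 genes lower (1.53%) and 56 higher (0.384%). The 15 min counts depend on the late libraries that give the spread: without the WT 45 min library the fit called 289 lower and 97 higher genes, and without the WT 60 min library 325 and 130. DESeq2 called 78 and 13. The gaps were also set beside those at 45 and 60 min, which come from other libraries. There the rule called 818 lower (6.53%) and 400 higher (3.19%) at 45 min, and 833 lower (6.65%) and 355 higher (2.83%) at 60 min. Of the 284 genes with a lower basal gap, 197 (69.4%) were also called lower at both 45 and 60 min. The number was 15 of 52 (28.8%) for lower response gaps, 42 of 89 (47.2%) for higher basal gaps and 2 of 54 (3.7%) for higher response gaps.

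**Figure D1:**
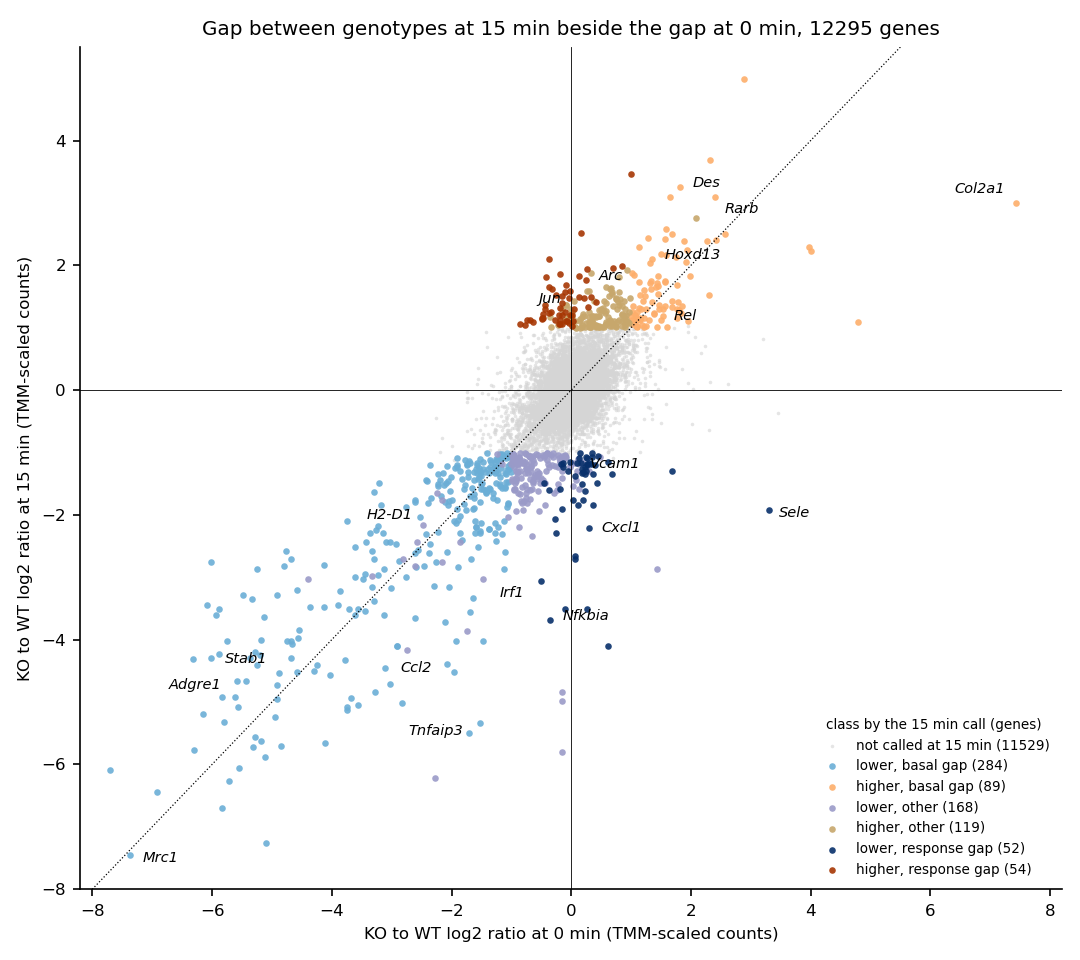
KO to WT log2 ratio at 15 min (vertical) against that at 0 min (horizontal) for 12295 genes, 1 point a gene, coloured by class, with equal ratios on the dotted line. Basal gaps are called at both times, and some lie far from the line, such as Tnfaip3 at -1.53 (0 min) and -5.33 (15 min). The dark points of the 52 lower response gaps lie below the line, among them Nfkbia at -0.35 and -3.69.

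In WT, 128 genes were higher at 15 min than at 0 min (1.01%), and 39 of them were lower in KO at 15 min. Both ratios use the WT 15 min library, so the share of 30.5% is a count that the rule partly fixes. Of the 39, 16 had a response gap, 11 a basal gap and 12 fell in neither class, and 20 passed the edgeR test. Their median KO to WT log2 ratio was -2.82 at 15 min, -3.62 at 45 min and -3.14 at 60 min. At 0 min 4 of the 39 had at most 3 counts in both libraries, and the 23 with at least 20 counts in the higher one had a median of -0.50. The 39 genes spanned a median of 5496 bp from start to end, against 21932 bp for all genes compared. Short length was shared with the 86 genes that were higher in KO at 15 min than at 0 min (0.685%), whose median was 3386 bp.

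Inhibitors and feedback regulators of NF-kB had a gap at 15 min that most members lacked at 0 min. Of 16 members, 9 were lower in KO at 15 min and 3 at 0 min, with a median log2 ratio of -1.17 at 15 min and -0.04 at 0 min, and 5 passed the edgeR test. Nfkbia, which encodes IkB-alpha, had 204, 1916, 3264 and 2527 counts in WT at 0, 15, 45 and 60 min against 178, 121, 169 and 135 in KO. The genotypes were close at 0 min and far apart at each later time. WT was 10.1-fold higher at 15 than at 0 min, KO was level at 1.00-fold (interval 0.790 to 1.27), and KO was 12.9-fold lower than WT at 15 min (interval 10.7 to 15.6). Nfkbia was the only gene of 14597 whose 0 to 15 min response was smaller in KO in the edgeR fit (0.00685%), with a difference of -3.34 ± 0.38 (log2, SE) and a Benjamini-Hochberg adjusted p of 0.0166 (1.42e-10 to 0.0548 across alternatives apart from 0.9998 with no filter on low counts). The call was lost in that fit and with limma-voom. No gene had a larger response in KO (0.0%). At an unadjusted p under 0.05 the counts were 133 smaller and 140 larger, DESeq2 called 2 and 0, and limma-voom called 0 and 0.

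Tnfaip3 encodes A20, a ubiquitin-editing enzyme that shuts off signalling to NF-kB. It had 109, 1086, 5115 and 3368 counts in WT against 42, 22, 51 and 29 in KO. The KO level was 2.89-fold lower before TNF and 40.2-fold lower at 15 min (interval 26.4 to 64.5), so a basal gap was present and had widened by 15 min. The ratio of the 15 min ratio to the 0 min ratio was -3.80 on the log2 scale (interval -4.66 to -2.96), and the edgeR test of the response difference gave a Benjamini-Hochberg adjusted p of 0.220. Smaller inhibitor genes followed in the same direction. Nfkbid, an atypical IkB protein, had 21 and 75 counts in WT at 0 and 15 min against 30 and 17 in KO. Nfkbib, the gene of IkB-beta, had 44 and 76 counts in WT against 59 and 29 in KO. Bcl3, a nuclear IkB protein that modulates p50 and p52 dimers, had 51 and 81 counts in WT against 67 and 28 in KO. In these 3 genes the KO level was above WT at 0 min, with an interval that held 1, and below it at 15 min. Nfkbie, the gene of IkB-epsilon, was 2.19-fold lower in KO at 0 min and 4.30-fold lower at 15 min. Traf1, an adaptor of TNF receptors, had 28 counts in WT against 2 in KO at 15 min, a ratio of 11.4 (interval 2.88 to 98.8), after 6 and 8 counts at 0 min. Nfkbiz, a nuclear IkB protein, had a smaller gap in the same direction, under the 2-fold rule. It had 1507 counts in WT against 862 in KO at 15 min, 1.42-fold lower (interval 1.31 to 1.55), after being 1.14-fold higher in KO at 0 min, with an interval that excluded 1.

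Chemokine genes, whose products recruit leukocytes, had the lowest median of the 16 lists, -3.85 on the log2 scale at 15 min. Of 11 members with enough counts, 8 were lower in KO at 15 min and 4 at 0 min, and all 8 passed the edgeR test. Macrophage markers moved with this list: 9 of 11 were lower in KO at 0 and at 15 min, and their part in it was not tested. Cxcl1, a neutrophil chemokine, had 49, 577, 567 and 422 counts in WT against 67, 102, 22 and 28 in KO. It was the one gene of the 39 that was also called higher at 15 min within KO, 2.25-fold (interval 1.64 to 3.11) against 12.7-fold in WT. Its KO level was then lower at 45 and 60 min than at 0 min. Cxcl2, its neighbour on chromosome 5, had 3, 206, 347 and 220 counts in WT against 0, 3, 1 and 1 in KO, a ratio at 15 min of 56.0 (interval 18.9 to 274).

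The monocyte chemokines Ccl2 and Ccl7 differed from Cxcl1 in that a gap was already present before TNF. Ccl2 had 95, 619, 1767 and 2051 counts in WT against 25, 24, 40 and 23 in KO, 4.23-fold lower at 0 min and 21.0-fold lower at 15 min. Ccl7 had 129, 638, 994 and 1027 counts in WT against 66, 71, 69 and 50 in KO, 2.18-fold lower at 0 min and 7.33-fold lower at 15 min. For both genes the WT level was above every KO library at all 4 times. The interferon-inducible Cxcl10 stood at 12 and 71 counts in WT and at 4 and 4 in KO, before the 688 and 715 counts reached in WT at 45 and 60 min. Ccl20, a ligand of lymphocytes and dendritic cells, had 39 counts in WT against 1 in KO at 15 min, a ratio of 31.8 (interval 5.38 to 1287), after 3 and 0 at 0 min. Ccl9 and Cxcl16, chemokines of myeloid cells, were already low in KO before TNF. At 0 and 15 min Ccl9 had 33 and 70 counts in WT against 1 and 3 in KO, and Cxcl16 had 51 and 79 against 8 and 2. At 0 min these were ratios of 36.8 (interval 6.16 to 1499) for Ccl9 and of 7.11 (interval 3.35 to 17.3) for Cxcl16. Cxcl12, a homeostatic chemokine that is not a classical TNF target, was not called, with 1071 counts in WT against 1290 in KO.

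Irf1 encodes a transcription factor that carries the signal on to interferon-type genes. It had 224, 1162, 4053 and 3110 counts in WT against 176, 114, 203 and 234 in KO, 1.42-fold lower in KO at 0 min and 8.31-fold lower at 15 min (interval 6.85 to 10.2). The 15 min gap passed the edgeR test, while the response difference did not under TMM scaling (-2.55 ± 0.35, Benjamini-Hochberg adjusted p 0.0631, and between 1.55e-06 and 0.226 across alternatives apart from 0.9998 with no filter on low counts). Among the 9 adhesion molecules, Vcam1, a ligand for leukocyte integrins, had 708 and 1403 counts in WT against 699 and 502 in KO at 0 and 15 min, 2.28-fold lower at 15 min. Sele, the endothelial selectin, had 28 counts in WT against 6 in KO at 15 min after 1 and 11 at 0 min, so its genotypes were in the opposite order before TNF. Of 18 survival and TNF receptor genes, 2 were lower at 15 min and neither passed the edgeR test. Gadd45b, a stress protein that restrains JNK signalling, had 93 and 280 counts in WT against 117 and 95 in KO. Map3k8, a kinase upstream of ERK, had 123 and 236 counts in WT against 150 and 90 in KO.

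NF-kB's own subunit genes were split. Relb and Nfkb2, partners in the non-canonical pathway, had 356 and 690 counts in WT at 15 min against 128 and 204 in KO. They were 2.27-fold and 2.76-fold lower in KO and passed the edgeR test. At 0 min they were 1.31-fold and 1.55-fold lower, with intervals that excluded 1 but under the 2-fold rule. Rel itself was higher in KO, 2.84-fold at 0 min and 2.18-fold at 15 min, a 15 min call that total-count scaling did not keep. Nfkb1, the p105 and p50 gene, was 1.48-fold lower at 0 min and 1.38-fold lower at 15 min.

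Tnf and a set of myeloid genes were also induced in WT and nearly silent in KO at every time. Tnf had 13, 91, 53 and 30 counts in WT against 0, 1, 0 and 0 in KO. Nlrp3, an inflammasome sensor, had 26, 106, 102 and 45 counts in WT and none in any KO library, at least 28.8-fold lower at 15 min. Clec4e, a C-type lectin receptor of macrophages, had 1 and 27 counts in WT against 0 and 0 in KO at 0 and 15 min. Of the 39 genes, 11 had at most 5 counts in the 4 KO libraries together. Macrophage markers moved with them, with 9 of 11 lower in KO at 0 and at 15 min. Their summed level at 15 min was 78.25 CPM in WT and 8.205 CPM in KO. Adgre1, C1qa, C1qc, Laptm5 and Tyrobp were at 0 in the KO 15 min library, and Cd68, at 119 and 77 counts, was the well counted marker that was not called. Their part in the gap of these genes was not tested.

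**Figure D2:**
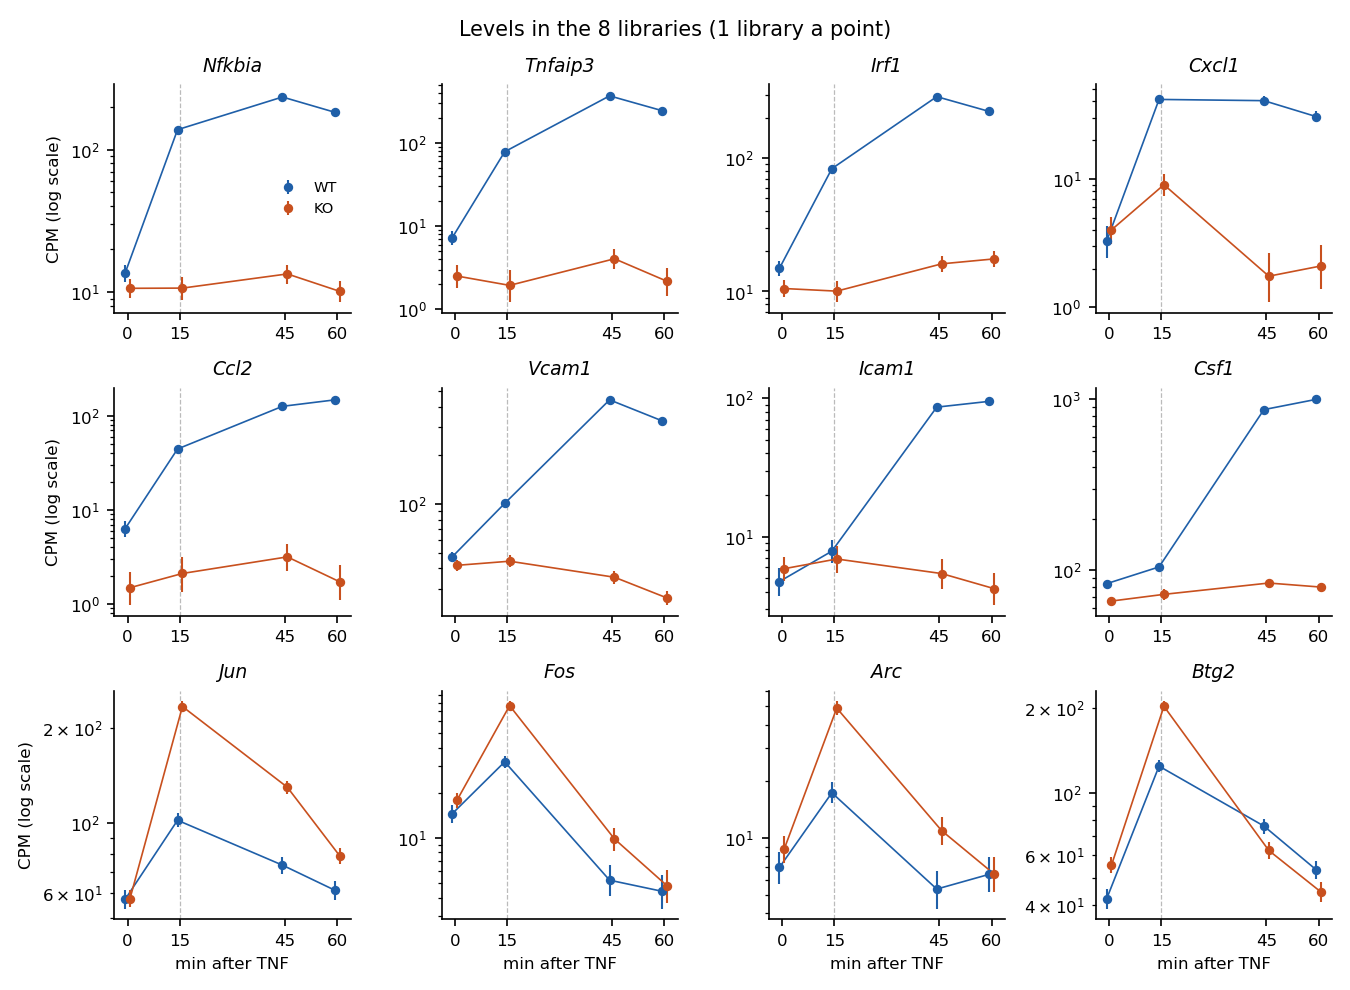
Levels of 12 genes in CPM on a log axis against minutes after TNF, 1 library a point, WT in blue and KO in orange, with exact 95% counting intervals and a dashed line at 15 min. Nfkbia, Tnfaip3, Irf1, Cxcl1, Ccl2 and Vcam1 are called lower in KO at 15 min, and Icam1 and Csf1 only later. Jun, Fos, Arc and Btg2 are up at 15 min in both genotypes.

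Many genes that were called lower in KO later were not yet called at 15 min. By the same rule 258 genes were lower in KO at both 45 and 60 min and were not called at 0 min. At 15 min, 55 of them (21.3%) were lower, 201 (77.9%) were not called and 2 (0.8%) were higher. Among all 12295 genes compared, 4.1% were lower and 2.13% higher, and 11529 were not called, so most genes of any kind were not called at 15 min. Among the 201, the median log2 ratio was -0.21 at 0 min, -0.31 at 15 min, -1.49 at 45 min and -1.56 at 60 min. Icam1, an adhesion molecule, had 71, 109, 1204 and 1314 counts in WT against 98, 78, 68 and 56 in KO, with a 15 min ratio of 1.14-fold lower (interval 0.844 to 1.54). Csf1, the macrophage growth factor, had 1254, 1455, 12164 and 13844 counts in WT against 1106, 820, 1061 and 1063 in KO. It was 1.26-fold lower in KO at 0 min and 1.45-fold lower at 15 min, with intervals that excluded 1. Ripk2, a kinase of the NOD pathway, had 113, 150, 2458 and 1903 counts in WT against 107, 77, 53 and 50 in KO. Tnip1, an A20-binding inhibitor, had 214, 205, 765 and 791 counts in WT against 207, 142, 138 and 140 in KO. In all 4 genes the WT level at 45 min was above every KO library, while at 15 min the gap was under 2-fold. The 201 genes spanned a median of 26773 bp and the 55 of 12935 bp. Some of the 55 were not called at 0 min because both 0 min libraries held under 20 counts, as for Cxcl2.

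**Figure D3:**
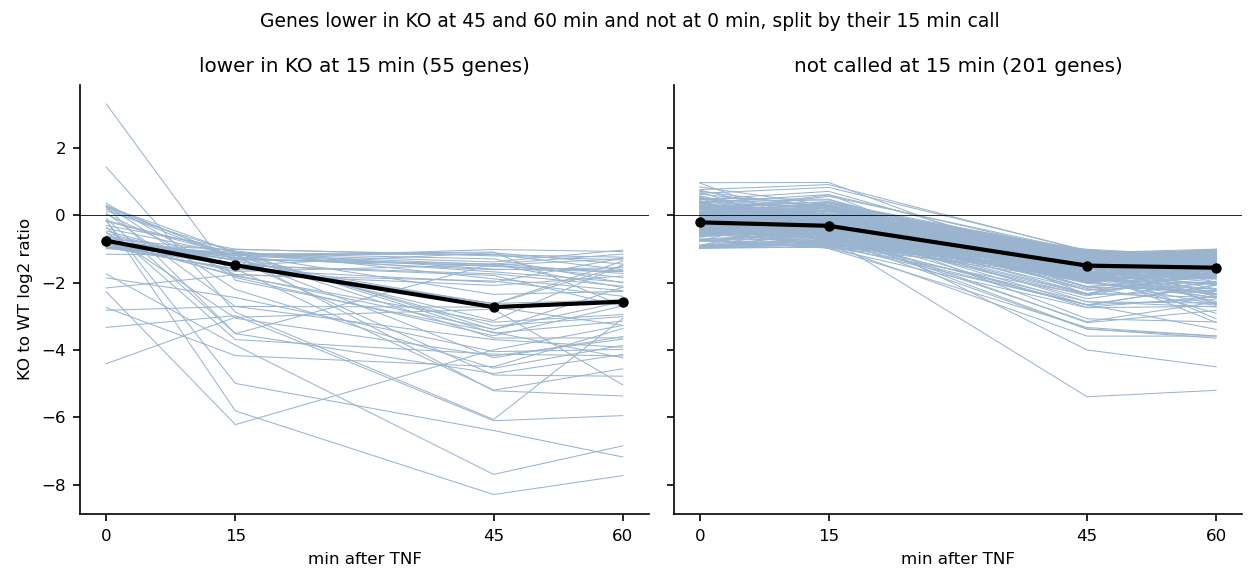
KO to WT log2 ratio at 0, 15, 45 and 60 min for genes lower in KO at 45 and 60 min and not called at 0 min, 1 line a gene with the median in black. The 55 genes on the left have a median of -1.48 at 15 min and the 201 on the right of -0.31.

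Immediate early genes, which respond to MAP kinase and serum response signals within minutes, included members that were up in both genotypes. Of 26 such genes 10 were called higher at 15 than at 0 min in WT and 12 in KO, and of 12 AP-1 genes 4 and 5 were. Among all genes, 23 were shared between the 128 called higher in WT and the 86 in KO. Dusp1, a MAP kinase phosphatase, had 390 and 1065 counts in WT at 0 and 15 min against 396 and 1000 in KO, with folds of 2.95 and 3.73. Btg2, an antiproliferative regulator of mRNA decay, had 630 and 1731 counts in WT against 926 and 2303 in KO. Atf3, a stress-induced AP-1 partner, had 53 and 121 counts in WT against 65 and 143 in KO. Apol8 was 5.63-fold higher at 15 min in WT and 8.14-fold in KO, and was back near its 0 min count at 45 min in both. In these genes KO reached at least the WT level at 15 min.

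Several of them were higher in KO. Jun, an AP-1 subunit, had 860, 1420, 1028 and 848 counts in WT against 964, 2657, 1637 and 1049 in KO. The genotypes were level at 0 min (1.01-fold) and KO was 2.30-fold higher at 15 min (interval 2.15 to 2.45), with folds over 0 min of 1.78 in WT and 4.07 in KO. Fos, its partner, had 218 and 448 counts in WT against 300 and 866 in KO, 2.37-fold higher at 15 min. Arc, best known as an immediate early gene of neurons, had 105 and 242 counts in WT against 147 and 555 in KO, 2.81-fold higher. Of 12 AP-1 genes 3 were called higher (Jun, Fos and Fosb), and of 26 other immediate early genes 5 were (Arc, Egr2, Nr4a1, Klf2 and Klf5). Of these, only Jun and Arc had a response gap. At 0 min Egr2, Nr4a1 and Klf2 were already higher in KO, at 0.92, 0.93 and 0.895 on the log2 scale, with intervals that excluded 0. Fosb and Fos were also higher then, at 0.76 (interval 0.17 to 1.38) and 0.30 (interval 0.05 to 0.56). The list medians were 0.49 and 0.77 on the log2 scale at 15 min, and 0.27 and 0.43 at 0 min. Under total-count scaling the medians were 0.30 and 0.58 and the calls were 3 higher among AP-1 genes, and 2 higher and 1 lower among the others. Of the 8 genes Arc alone passed the edgeR test (Benjamini-Hochberg adjusted p 0.0257), and the adjusted p was 0.0688 for Jun and 0.0821 for Fos. Egr1, which encodes a zinc finger factor of this group, was not called, with 1620 counts in WT against 2440 in KO (1.85-fold).

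A few genes lay between these patterns, up in both genotypes with a smaller rise in KO. Ier3, an early response gene linked to survival, had 86, 422, 421 and 357 counts in WT against 104, 175, 281 and 169 in KO, 5.30-fold over 0 min in WT and 2.48-fold in KO. Its KO to WT ratio was 1.97-fold lower at 15 min and therefore just missed the call. Zfp36, which encodes the mRNA-destabilising protein tristetraprolin, had 153 and 690 counts in WT against 224 and 418 in KO. Junb, an AP-1 subunit, had 291 and 1002 counts in WT against 428 and 749 in KO. None of the 3 passed the edgeR test at 15 min. Hbegf, an EGF receptor ligand, went the other way, with 124 and 146 counts in WT against 232 and 331 in KO. It was already 1.68-fold higher in KO at 0 min (interval 1.344 to 2.105) and had no response gap by the rule. Its gap at 15 min passed the edgeR test (Benjamini-Hochberg adjusted p 0.0129).

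In the other lists few members were called at 15 min. Of 13 MAP kinase phosphatase and Sprouty genes 1 was higher (Dusp10), and of 19 cholesterol synthesis genes 1 was higher (Insig1, a sterol-dependent brake on that pathway). Both calls had the same direction at 0 min and were lost under total-count scaling. The median log2 ratio of these lists was 0.32 and 0.57 at 15 min, and 0.15 and 0.48 at 0 min, so the cholesterol genes as a list lay above 0 at both times. No member was called among 10 mRNA decay regulators, 21 extracellular matrix genes and 15 p53 targets. Postn, a matrix protein of fibroblasts, was 0.96 lower on the log2 scale in KO with 11219 and 4714 counts at 15 min, under the 2-fold rule but past the edgeR test. At 0 min it was called, 2.27-fold lower in KO with 14834 and 7298 counts.

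**Figure D4:**
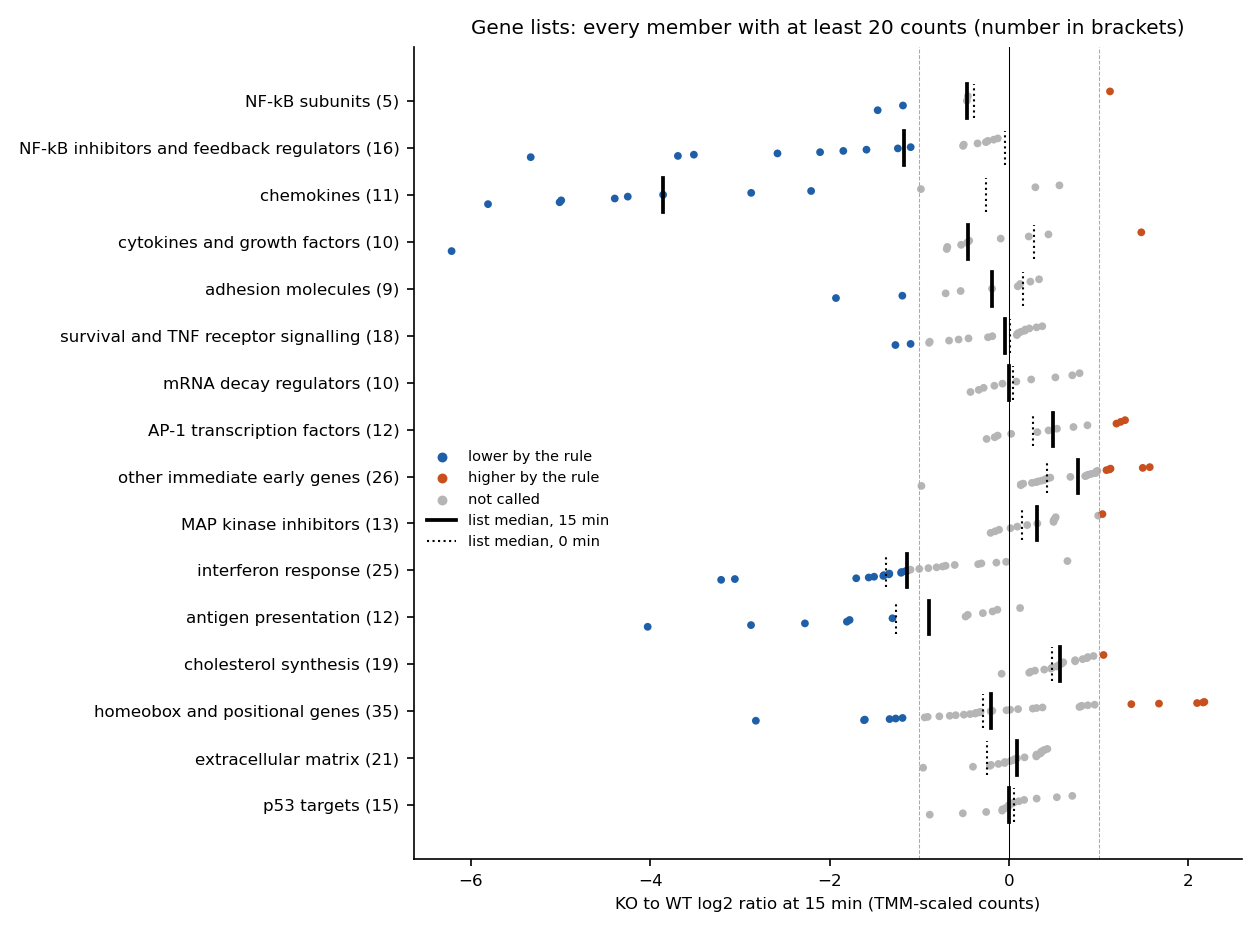
KO to WT log2 ratio at 15 min of every member of 16 gene lists with at least 20 counts, 1 point a gene, blue where called lower and orange where called higher, with the list median at 15 min (thick line) and 0 min (dotted line). Feedback regulators and chemokines have 15 min medians well below their 0 min medians (Ccl20 and Cxcl2 had at most 3 counts at 0 min), while those of interferon response and antigen presentation genes are low at both times.

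The larger part of the lower genes was already low before TNF. Macrophage genes led them. Mrc1, the mannose receptor, had 216 counts in WT against 1 in KO at 15 min, and 298 and 2 at 0 min. Adgre1, which encodes F4/80, had 112 and 0 counts at 15 min and 132 and 0 at 0 min. Lyz2, a lysozyme, had 182 and 3 counts at 15 min, and Ptprc, the pan-leukocyte CD45 gene, had 168 and 2. Stab1, a scavenger receptor of macrophages and sinusoidal endothelium, had 715 and 25 counts at 15 min, 23.3-fold lower (interval 15.7 to 36.3), and 740 and 28 at 0 min. Each of these 5 passed the edgeR test at 15 min. They were picked as among the lowest ratios in the same libraries, so this pass adds no support. Within WT, the ratio of 15 to 0 min was under 2-fold for each of the 5.

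Interferon response genes were low at both times. Of 25 members, 13 were lower at 15 min and 15 at 0 min, with medians of -1.13 and -1.37 on the log2 scale, and 3 passed the edgeR test. Irf1 was the member with a response gap. Oasl2, an antiviral protein, had 570 and 431 counts in WT at 0 and 15 min against 140 and 108 in KO. Mx2, an antiviral GTPase, had 359 and 361 counts in WT against 176 and 112 in KO. Irf7, a regulator of type I interferon genes, was 2.42-fold lower in KO at 0 min and 2.53-fold lower at 15 min. Of 12 antigen presentation genes 6 were lower at each time, and 4 passed the edgeR test at 15 min. H2-D1 and H2-K1, class I heavy chains whose near-identical copies make their counts uncertain, had 267 and 294 counts in WT against 45 and 70 in KO at 15 min. B2m, their light chain, had 356 counts in WT against 118 in KO at 15 min, 2.46-fold lower after 2.86-fold lower at 0 min, and did not pass the edgeR test. The sum of macrophage markers was lower in KO in the same libraries, and its part in these lists was not tested.

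Genes higher in KO before and after TNF included Des, Myh11, Rarb, Mgp, Tbx4 and Pitx1. Des, which encodes desmin, had 9 counts in WT against 70 in KO at 15 min, and 22 and 86 at 0 min. Myh11, smooth muscle myosin, had 42 and 151 counts at 15 min and 45 and 169 at 0 min. Rarb, a retinoic acid receptor, had 10 and 70 at 15 min and 14 and 82 at 0 min. Mgp, an inhibitor of calcification, had 100 and 273 at 15 min and 142 and 468 at 0 min. Each of these 4 passed the edgeR test at 15 min. They were picked as among the highest ratios in the same libraries, so this pass adds no support. Des was 1 of 2 skeletal muscle markers with enough counts, and the other, Ttn, had 35 counts in WT and 28 in KO at 15 min, -0.03 on the log2 scale. Tbx4 and Pitx1, hindlimb identity factors, had 26 and 13 counts in WT at 15 min against 95 and 48 in KO. Both also passed, but they too were picked by their 15 min values. Col2a1, a cartilage collagen, had 14 and 91 counts at 15 min but 27 and 5219 at 0 min, so its basal ratio rests on the KO 0 min library. Of the 6 cartilage markers with at least 20 counts at 15 min, 3 were higher in KO at 15 min and 5 at 0 min.

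Homeobox genes, which record a cell's position along the body and limb axes, were called in both directions. Of 35 members of the positional list 6 were lower and 5 higher in KO at 15 min, and 3 in each direction passed the edgeR test. Along the Hoxd cluster on chromosome 2 the ratio followed gene order, a pattern noticed after the values were seen. The 15 min log2 ratio was -2.82 for Hoxd3, -1.62 for Hoxd4, -1.61 for Hoxd8, 0.38 for Hoxd9, 0.81 for Hoxd10, 0.96 for Hoxd11, 1.42 for Hoxd12 and 2.10 for Hoxd13. Hoxd3 had 54, 52, 34 and 31 counts in WT against 11, 6, 5 and 10 in KO, and Hoxd13 had 88, 49, 93 and 120 counts in WT against 249, 171, 216 and 227 in KO. Counts of neither gene overlapped between the genotypes, but both were picked by their 15 min call, so this adds no support at 15 min. Hoxd3 and Hoxd4 overlap each other in the annotation, so their reads may be shared. Hoxb8, Hoxb9 and Hoxc4 were lower and Hoxa11 and Hoxa13 higher. The Hoxa11 call rests on 10 and 21 counts, and its log2 ratio was -0.09, 0.40 and 0.11 at 0, 45 and 60 min. For Hoxa13 the log2 ratio was 1.45 at 0 min, 1.67 at 15 min, 0.73 at 45 min and 0.34 at 60 min.

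**Figure D5:**
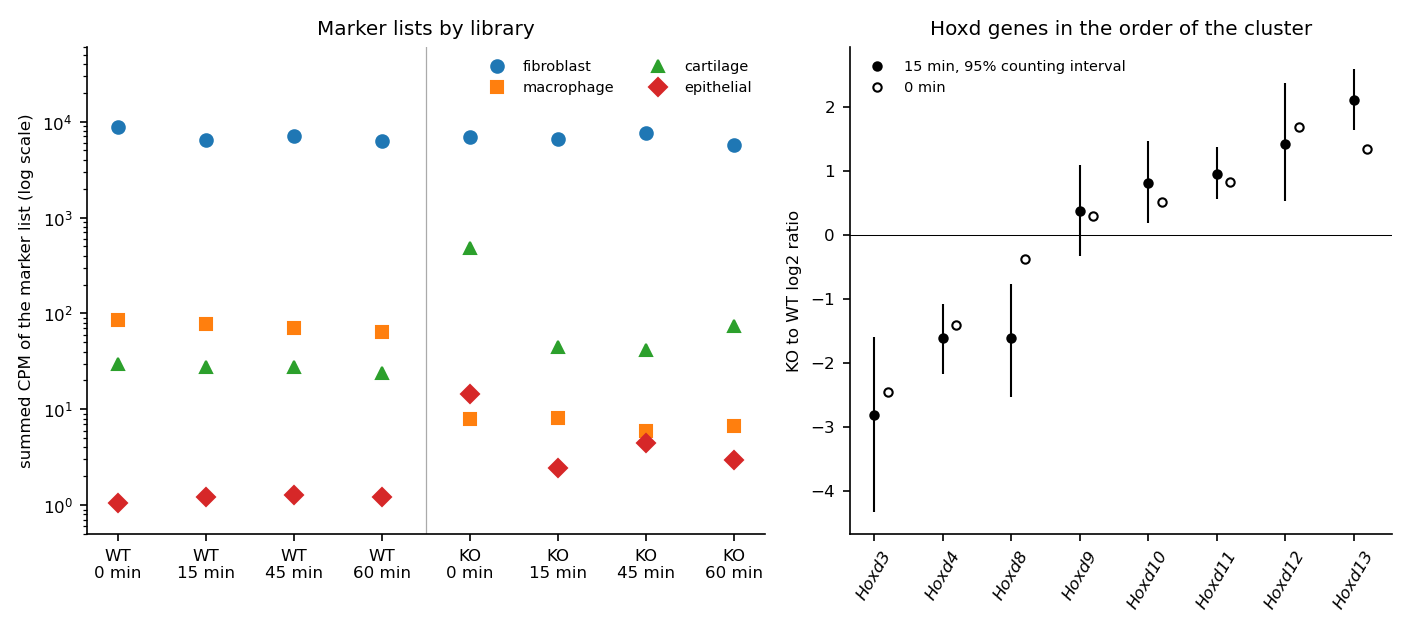
Left, summed CPM of 4 marker lists on a log axis in each of the 8 libraries, with macrophage markers at 63.99 to 85.19 CPM in WT and 5.956 to 8.205 CPM in KO and cartilage markers at 483.4 CPM in the KO 0 min library. Right, KO to WT log2 ratios of 8 Hoxd genes in cluster order at 15 min (filled, 95% counting interval) and 0 min (open), which run from -2.82 to 2.10 at 15 min.

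Genes with a response gap were mostly of low count. Known TNF genes such as Nfkbia, Vcam1, Irf1 and Cxcl1 were well counted, while Sele and Traf1 had 28 counts each in WT at 15 min. Over all 12295 genes compared, 2575 had under 50 counts in the higher 15 min library. Of the 52 lower genes with a response gap, 33 had under 50 counts in the higher library, 16 were induced in WT and 15 were instead lower at 15 than at 0 min within KO. Styk1, a receptor-like kinase, was a better counted case, with 113 and 168 counts in WT against 114 and 58 in KO, and passed the edgeR test at 15 min (Benjamini-Hochberg adjusted p 0.0494). Of the 54 higher genes with a response gap, 39 had under 50 counts, 17 were lower at 15 than at 0 min within WT and 11 were higher within KO. Within a genotype, 176 genes were lower at 15 than at 0 min in WT (1.39%) and 212 in KO (1.69%). Kctd12, an auxiliary subunit of GABA-B receptors, had 82 and 41 counts in WT against 164 and 132 in KO, and passed the edgeR test at 15 min. It was already higher in KO at 0 min, by 0.84 on the log2 scale (interval 0.45 to 1.24). Snu13, a spliceosome and snoRNP protein, had 45 and 18 counts in WT against 44 and 53 in KO and did not pass. Styk1 and Kctd12 were picked by their ratios in the same libraries, so their passes add no support. Neither passed the edgeR test of the response difference. At the edge of the count minimum, 129 genes compared here had exactly 20 counts in the higher library, and 135 genes just outside had 19.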

How the data were processed

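Chromatin-associated RNA of 8 samples was depleted of ribosomal RNA and made into stranded libraries, per the labels' protocols. The submitters' processing notes name cutadapt 1.12, STAR, featureCounts 1.5.0, DESeq2 and the build mm10. The authors deposited 1 table of raw counts by gene and library, with gene coordinates and an exon length, per the file headers. That length equals the merged exons in 100.0% of rows matched to the annotation, and the counts were therefore read as exonic. The strand setting, the handling of multi-mapping reads and the annotation version (all not given in the sources used here) leave overlapping, antisense and near-identical genes uncertain. Of 45706 identifiers, 98.77% were matched to a symbol.

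Samples were grouped by genotype and time from the labels, 1 library a group. Counts were scaled by TMM (edgeR 4.0.16, R 4.3.3) over the 15049 genes that reached 10 counts in 2 or more libraries. A KO to WT ratio has an exact Clopper-Pearson interval at 95%, and was called when at least 2-fold with an interval that excludes 1 and at least 20 counts in the higher library. A response gap also needs a ratio of the 15 min to the 0 min ratio of at least 2-fold, with a conditional exact interval that excludes 1, and no basal gap. A count of 0 was replaced by the limit it allows, 3 counts per library, and the fold written as at least that. Because PCR copies are not independent molecules, intervals and floors describe counting error alone. The edgeR quasi-likelihood fit had 6 cell means (0 min, 15 min, and 45 with 60 min, in each genotype), 2 residual degrees of freedom and Benjamini-Hochberg adjustment over the 15049 genes, with a threshold of 0.05. CPM values, computed here, are counts over TMM-scaled library size. Both procedures were run on simulated data. There the ratio rule met counting error alone, so that run cannot show how often it calls genes between real unreplicated libraries.

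The genes compared, the 16 gene lists and the 8 marker lists were chosen with earlier results of these data known. Named genes are 14 fixed genes (NF-kB subunits, TNF targets and immediate early genes), the 12 called genes farthest from 1 in each direction with at least 50 counts, the 10 farthest in each gap class, and up to 4 called and the 2 best counted members of each list, without predicted gene models. Tlr2, Ccl20, Cxcl10, Clec4e, Nfkbib, Icam1, Ripk2, Tnip1, Apol8, Junb, Klf5, Irf7, Postn, Tyrobp, Laptm5, C1qa, C1qc, Cd68, Dcn, Pdgfra, Ttn and the Hox genes other than Hoxd3, Hoxd13 and Hoxc6 were named after their values were seen. Gm26917, Gm42418 and Malat1 are named for their share of the counts. Alternatives were RLE scaling, total counts with and without the 3 largest gene models, TMM over the libraries compared only, other count minimums and folds, no filter, robust empirical Bayes, limma-voom (limma 3.58.1), DESeq2 1.42.0 and, chosen after seeing the data, leaving out each late library, TMM without the KO 0 min library, gaps at 45 and 60 min in place of 0 min, and the genes induced in WT without those near silent in KO or only those also lower at 45 and 60 min. Figures were drawn with matplotlib 3.10.9.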

Additional observations from a re-analysis of the deposited data

Results flagged for a closer look

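Nfkbia was set apart because its 0 to 15 min response differed between the genotypes in the edgeR quasi-likelihood fit, by -3.336 (KO minus WT, log2). Rwdd1 was set apart because its 0 to 15 min log2 ratio was -1.247 in WT and 1.118 in KO, from 41 and 16 counts in WT against 17 and 25 in KO. Snora2b, a small nucleolar RNA gene, was 1.696 in WT and -1.275 in KO, from 7 and 21 counts in WT against 25 and 7 in KO. Rwdd1 and Snora2b were picked from single libraries, without a test. In the edgeR fit the Benjamini-Hochberg adjusted p of the difference was 0.9999 for each, and both had under 50 counts in every library at 0 and 15 min. Xist, which lies on a chromosome set aside here, had 21085 counts in the WT 15 min library and 17 in the KO 15 min library.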

How the results depend on the processing

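RLE scaling, total counts without the 3 largest gene models and TMM over other sets of libraries kept each count of genes within 1.5 times, and no called ratio of a named gene changed sign under any alternative run. Uncalled values near 0 did: 14 values of named genes changed sign under total counts, the largest 0.18 on the log2 scale, and 4 under other scalings, each under 0.01. Total counts gave 149 higher genes and 53 with a higher basal gap. In the order lower, higher, lower basal gap, higher basal gap, lower response gap, higher response gap, and induced in WT and lower in KO, a minimum of 50 counts gave 266, 109, 168, 45, 21, 15 and 21 genes. A threshold of 1.5-fold gave 879, 703, 494, 256, 107, 148 and 100, and 3-fold gave 242, 59, 154, 19, 19, 10 and 17. No count minimum gave 428 higher genes. Of the 39 genes induced in WT and lower in KO, 25 were also lower at 45 and 60 min. In the edgeR fit, total counts called 265 genes lower and no filter on low counts called 46 lower and 2 higher. DESeq2 called 78 lower and 13 higher, and limma-voom 21 higher. Leaving out 1 late library gave 184 to 325 lower and 47 to 130 higher genes. Genes with a smaller response in KO numbered 5 with total counts, 0 with no filter and with limma-voom, 2 with DESeq2, and 2 to 8 without 1 late library. Irf1 and Tnfaip3 passed this response test with total counts and without a WT late library, Irf1 also with DESeq2, and Cxcl1 only without a WT late library. The cause was not tested for any of these shifts other than those in the thresholds, which change which genes can be called. No paired analysis was possible because there is 1 library per group and the labels give no replicate numbers. At a depth of 3 counts per library, 0.1793 to 0.2647 CPM, genes near silent in KO give lower bounds or wide intervals only.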

Other observations

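Chromosomes X and Y held 382 further genes with at least 20 counts in the higher 15 min library. Of these 382, 14 were lower in KO, all on X, and 14 were higher, 10 on X and 4 on Y. Off X and Y, 4.1% of genes were lower and 2.13% higher. Kdm5d, a histone demethylase gene on Y, had 375 and 356 counts in WT at 0 and 15 min against 947 and 587 in KO, so Y genes were present in both genotypes. The 4 Y genes called higher in KO at 15 min were also called higher at 0 min. Cybb, a subunit of the phagocyte oxidase, had 48 and 25 counts in WT against 0 and 0 in KO, and Tlr7, an RNA sensor, 45 and 45 counts in WT against 4 and 1 in KO. Apln, a vascular peptide, had 17 and 5 counts in WT against 56 and 40 in KO.

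The 9 mitochondrially encoded genes compared had a median KO to WT log2 ratio of -0.58 at 0 min and 0.41 at 15 min, and 2 were called higher. Their median log2 ratio of 15 to 0 min was -0.88 in WT and 0.25 in KO. The 16S ribosomal RNA gene mt-Rnr2 had 344 and 162 counts in WT against 338 and 287 in KO.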
